A study of Mus musculus with 6 samples.

Results

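MicroRNA (miRNA) loci were followed in RNA-seq of whole E15.5 mouse brains (embryonic stage in days), with 3 female and 3 male samples of wild-type C57BL/6 embryos. Loci were chosen by name. Every non-coding RefSeq ID (prefix NR) whose mouse symbol starts with Mir and a digit, or with Mirlet7, was kept, which gave 699 of 23485 IDs in the count tables. They were 687 precursor IDs and 12 host IDs of 9 host genes, a host being the long transcript, with a symbol ending in hg, from which miRNAs are cut. Neither group is labelled with a treatment. Embryos were sexed by whether the gonads held testicular cords, and a sample is the pooled RNA of several embryos. Sex was the only labelled difference, and the labels give each replicate a number. The study's methods describe the replicates as biological ones of pooled RNA. No batch, litter or date was given, so no value within batches could be had.

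A miRNA gene is transcribed as a long primary transcript. The nuclear enzyme Drosha with its partner Dgcr8 cuts a hairpin out of it, exportin 5 (Xpo5) with Ran carries the hairpin to the cytoplasm, and Dicer1 trims it to a mature RNA that Argonaute proteins hold against target mRNAs. Pairing runs mainly through the seed, the bases from position 2 to position 8 of the mature RNA. In the developing brain miR-124 is known as the miRNA of neurons, miR-9 acts in neural progenitors and their differentiation, let-7 is held down by the Lin28 proteins in early progenitors, and the miR-17 cluster is tied to proliferation. These libraries were made from total RNA, so a precursor ID counts reads that fall on its hairpin window, mostly from primary transcripts or from a gene that covers the window. Mature miRNAs were not measured by these libraries.

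The mature sequences of the loci on which the results turn are given first, as RefSeq (GRCm38.p6) lists them, with the seed in capitals. The let-7 members let-7c, let-7e and let-7f share a seed, as do miR-99a with miR-100, miR-125a with miR-125b, and miR-181a with miR-181b, so these loci feed the same target families. The last 3 are shown because each is also found letter for letter in the mRNA of a protein-coding gene that lies elsewhere in the genome.
let-7c-5p: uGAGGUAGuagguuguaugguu
let-7e-5p: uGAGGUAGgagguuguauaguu
let-7f-5p: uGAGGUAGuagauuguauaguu
miR-99a-5p: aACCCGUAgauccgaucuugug
miR-100-5p: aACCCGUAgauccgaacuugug
miR-125a-5p: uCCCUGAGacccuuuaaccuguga
miR-125b-5p: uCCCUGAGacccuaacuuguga
miR-181a-5p: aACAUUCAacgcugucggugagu
miR-181b-5p: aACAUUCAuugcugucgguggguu
miR-9-5p: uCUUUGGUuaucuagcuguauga
miR-7a-5p: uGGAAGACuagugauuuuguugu
miR-134-5p: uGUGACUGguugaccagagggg
miR-682: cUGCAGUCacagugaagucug
miR-692: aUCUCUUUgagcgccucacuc
miR-703: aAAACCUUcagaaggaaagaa

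Totals per sample ran from 4908565 to 10294443 counts, male sample 1 being the deepest and also the one with the most IDs at 0 (6743, against 4120 to 6280 in the others). The upper limit behind a count of 0, taken as 3 counts, was at most 0.598 CPM (counts scaled to a common library total), and it covers counting error only. As a check of the tissue, the summed level of 5 neuronal mRNAs (Tubb3, Stmn2, Dcx, Map2 and Neurod6) was 2420 to 2850 CPM in female and 2640 to 3440 CPM in male samples. The summed level of 5 skeletal muscle mRNAs (Myog, Myh3, Actc1, Acta1 and Ttn) was 5480 to 6110 CPM in female and 4380 to 6130 CPM in male samples, so these mRNAs were counted in every library labelled as brain. Surface epithelium markers summed to 818 to 1570 CPM and cartilage markers to 59.5 to 199 CPM. The precursor IDs listed for muscle, epithelium, blood, endothelium and mesenchyme were themselves low, at 5.50 CPM or less per list and sample, a sum that leaves out the host Mir1a-1hg.

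Most miRNA loci were at or near the limit of detection. Of the 699 IDs, 122 (17.5%) had 10 or more counts in at least 1 sample and were tested, against 56.9% of all IDs and 42.1% of the non-coding IDs outside the list. The tested IDs were 111 of the 687 precursors and 11 of the 12 hosts. All 699 had at least 1 count somewhere, as did every one of the 23485 IDs, so these are shares of counted IDs only. Of the 699, 448 had no more than 9 counts in the 6 samples together and 15 had 10 or more counts in every sample. At the edge of this filter, 13 IDs reached 9 counts in their highest sample and stayed out, and 10 IDs reached 10 and went in. Abundance was concentrated in few loci. Sums of 100 counts or more were seen for 30 IDs, and of 1000 or more for 4 of them, which were Mir682 and the hosts Mir124a-1hg, Mir99ahg and Mir124-2hg.

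The share of precursors that could be tested differed by where they lie. Hairpin sequences were matched to the mouse assembly NCBIM37 (mm9), on which the reads had been aligned. Of 48 precursors in the imprinted stretch of chromosome 12 between Dlk1 and Dio3, 42 (87.5%) were tested, against 69 of the 639 precursors elsewhere (10.8%). Among those elsewhere, the tested share was 13.6% in exons of a gene on the same strand (9 of 66), 8.67% in introns (30 of 346), 25.5% opposite to a gene (12 of 47), 6.87% outside annotated genes (9 of 131) and 18.4% for 49 that were not placed. How the counting treated strand and reads shared by overlapping IDs is not stated, so for a window inside or opposite to another gene the reads of both cannot be told apart. Levels of different loci were set side by side per length of the window. Over the 102 placed tested precursors the median was 13.1 CPM per kb and the lowest 3.14 CPM per kb. Mir682 stood at 4790 CPM per kb, Mir692-2 at 122, Mir703 at 119, Mir5125 at 64.7 and Mir377 at 54.7.

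With edgeR, no miRNA locus was called sex-biased, while DESeq2 called Mir682. In edgeR's quasi-likelihood test of male against female, 0 of the 122 tested IDs passed an adjusted p under 0.05, where 0.0299% of all 13374 tested IDs did. By the unadjusted p, 2 IDs passed 0.05 with higher male values (Mir682 and Mir692-2) and 4 with higher female values (Mir5108, Mir1955, Mir568 and Mir6374), against 6.68% and 4.82% of all tested IDs in these directions. Together these were 6 of 122 beside 11.5% over all IDs. The 3 male values lay above the 3 female values for 5 IDs (Mir682, Mir692-2, Mir6516, Mir124a-2 and Mir7666) and below them for 3 (Mir568, Mir1955 and Mir181b-2), beside 8.70% and 8.35% of all tested IDs. Of the 122 IDs, 18 reached the filter of 10 counts in female samples only, 31 in male samples only and 73 in both. Mir5108, Mir1955, Mir6374 and Mir181b-2 were among the 18 and Mir124a-2, Mir7666 and Mir9-3 among the 31. These passed only through the sex in which they are high, so the filter itself favoured a difference and their values are no support for one. DESeq2 gave an adjusted p to 4 of the 122 and called 1 of the 4, Mir682, beside 1.55% of the 6114 IDs to which it gave one. RUVr estimates unwanted variation from model residuals, and the study's own comparison used it. With such a factor DESeq2 called 3 (Mir682, Mir124a-1hg and Mir99ahg, the latter pair lower in male) of 14 members with an adjusted p, beside 3.88% of 8966 IDs, and edgeR called 0 of the 122, beside 0.269%. Without the low-count filter edgeR called 1 of the 699, Mir682, and 1.18% of all 23485 IDs. The median log2 fold change, male minus female, was -0.13 over the 122 IDs and -0.01 over all tested IDs, with 51 IDs above and 71 below 0.

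That median depended on single libraries and on the RUVr factor. Without male sample 1 it was 0.23, with 78 of 120 IDs above 0, and without male sample 3 it was -0.71. With the RUVr factor it was -0.41 in edgeR and -0.43 in DESeq2, where all tested IDs had medians of -0.03 and -0.04. Male sample 1 held the lowest CPM of the 6 samples for 72 of the 122 IDs (59.0%), against 25.0% of all tested IDs, and male sample 3 was the lowest for 0 of them (9.23% of all tested IDs). Female sample 1 and male sample 3 were each the highest for 42 of the 122 (34.4%), against 19.7% and 11.3% of all tested IDs. The share with the lowest value in male sample 1 was 90.9% of the tested hosts (10 of 11), 66.7% of the tested precursors of the imprinted locus (28 of 42) and 49.3% of the other tested precursors (34 of 69). In the same sample the markers of muscle (4380 CPM) and cartilage (59.5 CPM) were at their lowest of the 6 samples and those of surface epithelium (1570 CPM) and neurons (3440 CPM) at their highest. The part of tissue make-up or depth in the low miRNA loci of male sample 1 was not tested.

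**Figure D1:**
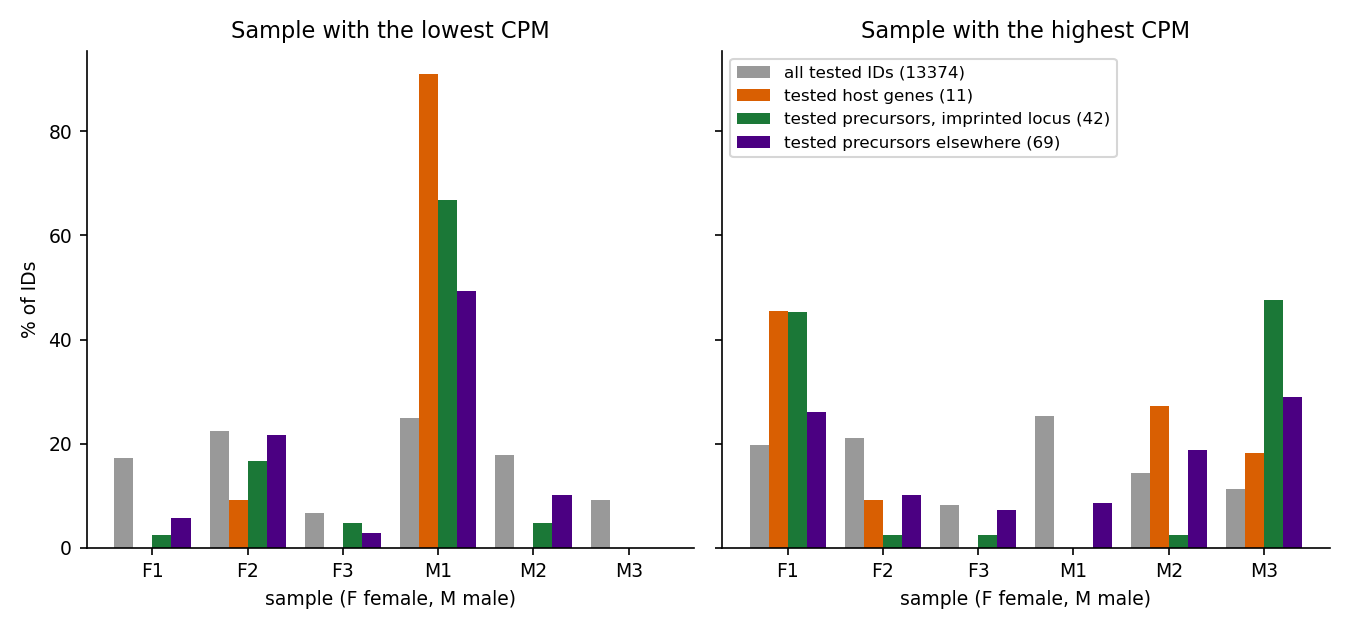
Share of IDs (%) for which each sample had the lowest (left) or the highest (right) CPM of the 6 samples, for all tested IDs, tested hosts and tested precursors inside and outside the imprinted locus (numbers of IDs in the legend). Male sample 1 was the lowest for 90.9% of hosts and 25.0% of all tested IDs.

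Among the hosts, Mir124a-1hg (chr14:65206952-65212796, + strand), the primary transcript of a miR-124 hairpin, had the most counts. It was counted 843, 475 and 682 times in female samples 1, 2 and 3 and 183, 859 and 960 times in the male samples in the same order. Its CPM was 136, 94.7 and 69.5 in female and 18.9, 131 and 95.9 in male samples, so a single male library lay far below the other 5, and these overlapped. Male minus female, the log2 difference was -0.29 (SE 0.46, adjusted p = 0.837 in edgeR), and 0.18 without male sample 1 (adjusted p = 0.846). Its call by DESeq2 with the RUVr factor had a log2 fold change of -0.56 and an adjusted p of 0.0486. The second miR-124 host, Mir124-2hg, had 235, 174 and 344 counts in female and 293, 332 and 415 in male samples. At 38.0, 34.7 and 35.1 CPM in female and 30.3, 50.7 and 41.4 CPM in male samples, it too was lowest in male sample 1, nearer to the other samples. Means were 35.9 ± 1.82 CPM (SD, n = 3) and 40.8 ± 10.2 CPM (SD, n = 3), and the log2 difference was 0.18 (SE 0.19, adjusted p = 0.731 in edgeR), or 0.35 without male sample 1 (unadjusted p = 0.0528, adjusted p = 0.535 in edgeR) and 0.01 without male sample 2. A lower level in bulk tissue cannot tell fewer cells of a type from less RNA per cell.

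Mir99ahg (chr16:77329504-77598689, + strand), the host gene named for miR-99a, gave 330, 222 and 380 counts in female and 80, 295 and 489 counts in male samples. Female samples held 45.5 ± 7.39 CPM and male samples 34.0 ± 22.4 CPM (SD, n = 3 each), male sample 1 being at 8.26 CPM and the other 5 samples between 38.7 and 53.4 CPM. The log2 fold change moved from -0.42 (SE 0.43, adjusted p = 0.723 in edgeR) to 0.05 without that sample (adjusted p = 0.965). With DESeq2 and the RUVr factor it was -0.73 with an adjusted p of 0.0245. Mir17hg (chr14:115442101-115445949, + strand), the host of the miR-17 cluster, had 102, 103 and 141 counts in female and 47, 162 and 196 counts in male samples. It too was lowest in male sample 1, at 4.85 CPM against 14.4 to 24.7 CPM in the other samples, with a log2 fold change of -0.07 (SE 0.41, adjusted p = 0.962 in edgeR), or 0.38 without that sample. The 4 precursor IDs of this host in the tables held 0 to 9 counts per sample and were not tested.

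**Figure D2:**
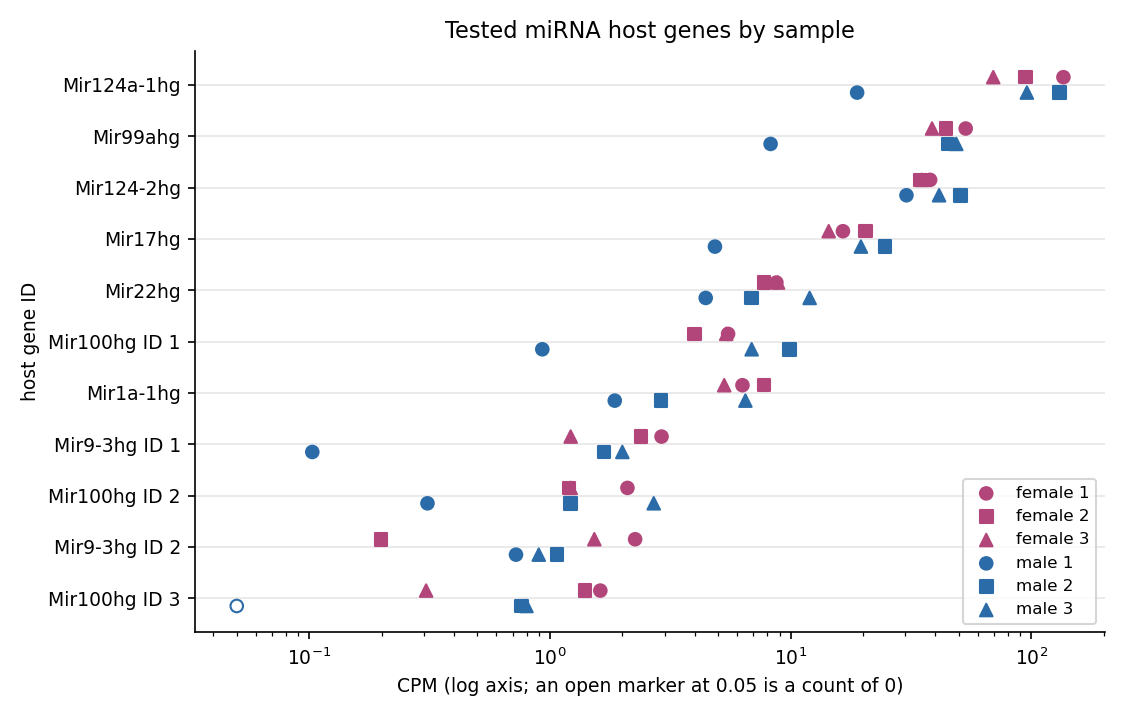
CPM of the 11 tested host IDs (rows, ordered by mean CPM) in each female (upper, red) and male (lower, blue) sample, on a log axis, with an open marker for a count of 0. Male sample 1 (blue circle) is the lowest sample in 10 of the 11 rows. Without it the sexes overlap for Mir124a-1hg, Mir99ahg, Mir17hg, Mir22hg and Mir1a-1hg. For Mir124-2hg the other male samples (50.7 and 41.4 CPM) lie above the female samples (34.7 to 38.0 CPM). The same holds for the highest Mir100hg ID (9.92 and 6.89 CPM in male, 3.99 to 5.5 CPM in female samples).

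The lower hosts followed with few counts. Mir22hg, host of miR-22, had 39 to 87 counts in female and 43 to 120 in male samples (log2 fold change -0.12, SE 0.34). Mir100hg, the host gene named for miR-100, is split over 3 IDs. The highest of them had 34, 20 and 53 counts in female and 9, 65 and 69 in male samples, with a log2 fold change of 0.22 (SE 0.57), or 0.73 without male sample 1 (unadjusted p = 0.0349), and the others gave -0.08 and -1.04, the latter being -0.42 without male sample 1. Both IDs of Mir9-3hg, host of a miR-9 hairpin, had 1 to 20 counts per sample and their log2 fold changes were -0.77 (SE 0.77), or -0.20 without male sample 1, and -0.61 (SE 0.78), or -0.08 without female sample 1. Mir155hg, host of the immune cell miRNA miR-155, reached 8 counts at most and was not tested. Over the 11 tested hosts 9 log2 fold changes were below 0 with a median of -0.29, and without male sample 1 the median was 0.17 and 7 of the 11 were above 0. The summed level of the tested hosts was 274, 219 and 182 CPM in female and 70.6, 276 and 238 CPM in male samples.

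Mir1a-1hg, the host of the muscle miRNA miR-1, was low in a pair of male samples. Its counts were 39, 39 and 52 in female and 18, 19 and 65 in male samples, or 6.31, 7.77 and 5.30 CPM against 1.86, 2.90 and 6.49 CPM. Male sample 3 lay inside the female range, and the log2 fold change was -0.76 (SE 0.43, adjusted p = 0.506 in edgeR). It was -0.41 without male sample 1 and -1.43 without male sample 3 (unadjusted p = 0.0062, adjusted p = 0.232 in edgeR). The muscle mRNAs moved the same way in these samples, at 4380, 5080 and 6130 CPM in male samples 1, 2 and 3, and the part of muscle RNA in the host's values was not tested. The miRNA loci of muscle were present as 6 of 10 listed symbols, summed to 1.03 to 5.50 CPM per sample, and 1 of them was tested.

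By raw counts the neural loci were seen through their hosts more than through their hairpins. Hosts are far longer than hairpin windows, so this is no comparison of level per length. The list held 46 IDs, of which 22 were tested, 14 of them precursors out of 38. None was called or had an unadjusted p under 0.05 in edgeR with all 6 samples and no RUVr factor, where 11.5% of all tested IDs had such a p. With the RUVr factor some had an edgeR unadjusted p under 0.05, including Mir99ahg (0.00187, adjusted p = 0.0965) and Mir124a-1hg (0.0054, adjusted p = 0.124). The 24 that were not tested summed to between 1 and 27 counts over the 6 samples, 11 of them to 5 or fewer. Their sexes were not compared. Among these, Mir137 had 5 counts in all, Mir7b had 7 counts, each in male sample 3, and Mir128-1 and Mir128-2 had 0 to 3 counts per sample.

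The miR-9 and miR-124 hairpins were rare. Mir9-1 (chr3:88019520-88019608, + strand), inside an intron of the non-coding gene Gm3764, had 9, 0 and 3 counts in female and 2, 6 and 7 in male samples, just under the filter. Mir9-3 (chr7:86650150-86650239, + strand) lies within the span of Mir9-3hg and had 3, 0 and 0 counts in female and 0, 8 and 12 in male samples. Its log2 fold change of 2.28 had a standard error of 1.46 (adjusted p = 0.555 in edgeR), male sample 1 was at 0 like a pair of female samples, and the groups overlapped. Leaving out male sample 1 gave 2.89, and leaving out female sample 3 gave 1.56. Without female sample 1, whose 3 counts were the only female ones, the fitted value was 5.73, which is no bound. The ID passed the filter only through male samples, so none of these values counts as support for a difference. Its host did not show higher male values. Mir124a-2 had 4, 1 and 6 counts in female and 8, 8 and 17 in male samples. Every male value, from 0.826 to 1.70 CPM, lay above every female value, from 0.199 to 0.647 CPM, but the log2 fold change of 1.28 (SE 0.78) had an edgeR adjusted p of 0.536. Mir124a-2 too passed the filter only through male samples. Mir124a-3 (chr2:180628736-180628822, + strand), outside annotated genes, had 0 to 2 counts per sample.

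The let-7, miR-99, miR-100 and miR-125 hairpins lie together in clusters. On chromosome 16, Mir99a (chr16:77599181-77599245) and Mirlet7c-1 (chr16:77599902-77599995) start just past the annotated end of Mir99ahg. Mir99a had 8, 11 and 4 counts in female and 0, 14 and 11 in male samples, a log2 fold change of -0.25 (SE 1.03). Mirlet7c-1 had 5, 3 and 6 against 2, 3 and 10 counts (-0.25, SE 0.89). On chromosome 9, Mir100 (chr9:41339508-41339587), Mirlet7a-2 (chr9:41344799-41344894) and Mir125b-1 (chr9:41390009-41390085) lie in introns of the non-coding gene D230004N17Rik, and the last also within Mir100hg. Their log2 fold changes were -0.12 (SE 0.78), 0.29 (SE 0.94) and -0.40 (SE 0.90). On chromosome 17, Mirlet7e and Mir125a had at most 10 counts, reached in male sample 3. Of 9 let-7 precursors 4 were tested, with 3 above and 1 below 0, and the summed level of these 4 was 2.75, 1.99 and 2.65 CPM in female and 0.93, 3.05 and 4.59 CPM in male samples. The standard errors of these hairpins were larger than their fold changes.

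Other neural hairpins were as variable. Mir181b-2 (chr2:38709350-38709438, + strand), which lies opposite to Nr6a1, had 15, 3 and 8 counts in female and 1, 3 and 5 in male samples, and in CPM the groups did not overlap. Its log2 fold change was -1.83 (SE 0.92, unadjusted p = 0.0691, adjusted p = 0.460 in edgeR). This ID passed the filter only through female samples, so its values are no support for a difference. Its neighbour Mir181a-2, with the same seed in its 5p product, had 1, 4 and 4 against 0, 2 and 11 counts (0.12, SE 1.17). Mir7-1 (chr13:58494140-58494247, - strand), in an intron of Hnrnpk, had 15, 5 and 23 against 9, 17 and 18 counts (-0.17, SE 0.58). The IDs of Hnrnpk itself, an abundant RNA-binding protein gene, held 0 to 9 counts per sample and were not tested, so they could not be set beside the hairpin. Those of Mcm7, which encloses Mir25, held 2 to 16 counts, and the more counted ID had a log2 fold change of -0.57 (SE 0.78). Mir134 (chr12:110972349-110972419, + strand), a miRNA of dendrites, had 26, 8 and 22 counts in female and 18, 22 and 41 in male samples (0.21, SE 0.48).

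Mir134 belongs to the imprinted chromosome 12 locus, which gave the largest block of detected hairpins. In this locus the maternally expressed non-coding genes Meg3, Rian and Mirg lie in a row on the + strand, with the paternally expressed Rtl1 opposite. Of the 48 hairpins, 7 lay between Meg3 and Rian, 3 inside Rian, 28 between Rian and Mirg, 9 inside Mirg and 1 close to Dio3. The tested hairpins had 28 to 182 counts over the 6 samples and 7.39 to 54.7 CPM per kb. None of the 42 had an unadjusted p under 0.05 in edgeR with all 6 samples and no RUVr factor, the smallest being 0.105, or groups that did not overlap. Log2 fold changes ran from -0.97 to 1.54 with 20 above and 22 below 0 and a median of -0.06, which was 0.36 without male sample 1 and -0.76 without male sample 3.

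The hairpins of the locus were high or low in the same samples. The summed level of the 42 tested ones was 112, 52.0 and 61.6 CPM in female and 24.9, 70.0 and 111 CPM in male samples, so the highest sample of each sex was near the other and male sample 1 the lowest. The same sample was lowest in each stretch from Meg3 to Mirg, with the untested hairpins included. Between Rian and Mirg these sums were 58.4, 27.3 and 31.9 CPM in female and 14.3, 43.3 and 60.6 CPM in male samples, and inside Mirg 19.4, 10.6 and 13.1 against 4.45, 13.0 and 21.9 CPM. The long transcripts were also lowest there. Meg3 was at 63.4, 35.5 and 37.5 CPM in female and 20.7, 41.7 and 66.5 CPM in male samples, Mirg at 69.1, 61.4 and 46.0 against 25.1, 55.5 and 62.8 CPM, and Rian at 1390, 1410 and 1210 against 1000, 1430 and 1410 CPM. Rtl1 was at 31.9 CPM in male sample 1 and at 63.6 to 106 CPM in the others, while Dio3, at the end of the locus, ranged from 12.8 to 17.3 CPM with male sample 1 at 16.1 CPM. Their log2 fold changes were -0.08 (SE 0.33) for Meg3, -0.30 (SE 0.27) for Mirg, -0.06 (SE 0.15) for Rian, -0.28 (SE 0.30) for Rtl1 and -0.03 (SE 0.20) for Dio3.

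**Figure D3:**
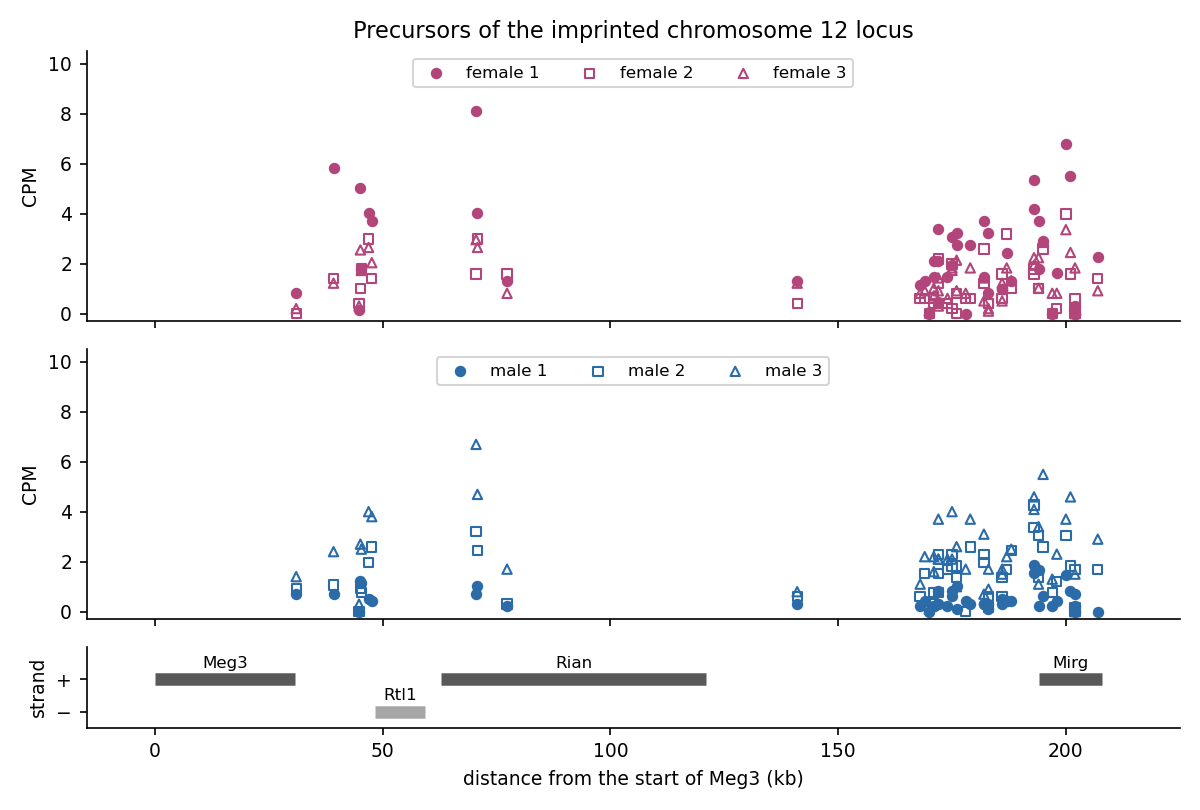
CPM of 47 precursors of the imprinted chromosome 12 locus in each female (top) and male (middle) sample against the distance from the start of Meg3 in kb, with the spans of Meg3, Rian, Mirg and Rtl1 by strand (bottom). Female sample 1 and male sample 3 hold most of the highest values and male sample 1 (filled blue circles) most of the lowest, at a sum of 24.9 CPM over the 42 tested hairpins, and the hairpin next to Dio3 is left out.

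The tested members with higher male values and the smallest p, Mir682 and Mir692-2, were hairpin windows that match mRNAs. Of 96 tested precursors with a hairpin sequence 6 matched an mRNA. Mir568 (Zbtb20), Mir3101 (Mia1) and Mir7673 (Klhl15) lie in exons and match at 100%, and Mir682, Mir692-2 and Mir703 also match genes elsewhere. Mir682 (chr13:75782494-75782589, + strand) lies in an exon of the pseudogene Gm4149. Its hairpin is 99.0% identical to the mRNA of Rpl37a, a protein of the large ribosomal subunit, and the genome held 5 copies at 95% identity or more, itself included. The mature miR-682 sequence printed above occurs exactly in the Rpl37a mRNA. Mir682 had 2289, 1585 and 4176 counts in female and 6302, 3402 and 4811 counts in male samples. Levels were 371 ± 54.8 CPM in female and 550 ± 89.4 CPM in male samples (SD, n = 3 each), and the lowest male value (481 CPM) lay above the highest female value (426 CPM). The log2 fold change was 0.57 (SE 0.15), with an unadjusted p of 0.00202 and an edgeR adjusted p of 0.338. Adjusted p-values were 0.0322 in DESeq2, 0.00188 in DESeq2 with the RUVr factor and 0.00547 in edgeR with no count filter, and 0.00188 to 0.809 over all alternatives. Without male sample 1 the log2 fold change was 0.43 (adjusted p = 0.274 in edgeR).

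Rpl37a itself, chosen after its values were seen, also had higher male values. It had 91, 53 and 178 counts in female and 249, 154 and 194 in male samples, or 10.6 to 18.1 CPM against 19.4 to 25.7 CPM, with a log2 fold change of 0.64 (SE 0.22, unadjusted p = 0.0127, adjusted p = 0.347 in edgeR). Its ID thus held fewer counts than that of the hairpin. How reads that align to several places were counted is not stated, so reads of Rpl37a, its pseudogenes and Mir682 cannot be told apart.

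Mir692-2 (chr4:125181993-125182101, + strand) lies in an intron of the glutamate receptor gene Grik3, where the annotation also has the pseudogene Ftl2. The hairpin was also found without mismatch on chromosome 13, in an exon of Gm10116, and at 97.2% identity in an exon of Ftl1, the ferritin light chain, with 9 copies in all. Counts were 60, 27 and 135 in female and 196, 105 and 145 in male samples. Male values (14.5 to 20.2 CPM) lay above female values (5.38 to 13.8 CPM), and the log2 fold change was 0.78 (SE 0.29, unadjusted p = 0.0187, adjusted p = 0.368 in edgeR), or 0.51 without female sample 2. Grik3 did not share that direction, with a log2 fold change of -0.19 (SE 0.12). Ftl1, also chosen after its values were seen, was at 639 to 949 CPM in female and 1020 to 1280 CPM in male samples, a log2 fold change of 0.54 (SE 0.15, unadjusted p = 0.00339, adjusted p = 0.341 in edgeR).

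Mir703 (chr5:98904575-98904683, - strand) had a 98.2% match to Eef1a1, the translation elongation factor, and 3 copies. Counts were 63, 59 and 118 counts in female and 181, 97 and 105 in male samples. The groups overlapped, at 11.3 ± 0.993 and 14.7 ± 4.11 CPM (SD, n = 3 each), and the log2 fold change was 0.37 (SE 0.24, adjusted p = 0.565 in edgeR). It was 0.14 without male sample 1 and 0.57 without male sample 3. For Eef1a1 it was 0.27 (SE 0.14, adjusted p = 0.462 in edgeR). Of the tested precursors with a hairpin sequence, 3 of 96 had more than 1 near copy in the genome, and they were these 3. For all 3 hairpins the mRNA and the hairpin were both highest in male sample 1, the sample in which most other miRNA loci were lowest.

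**Figure D4:**
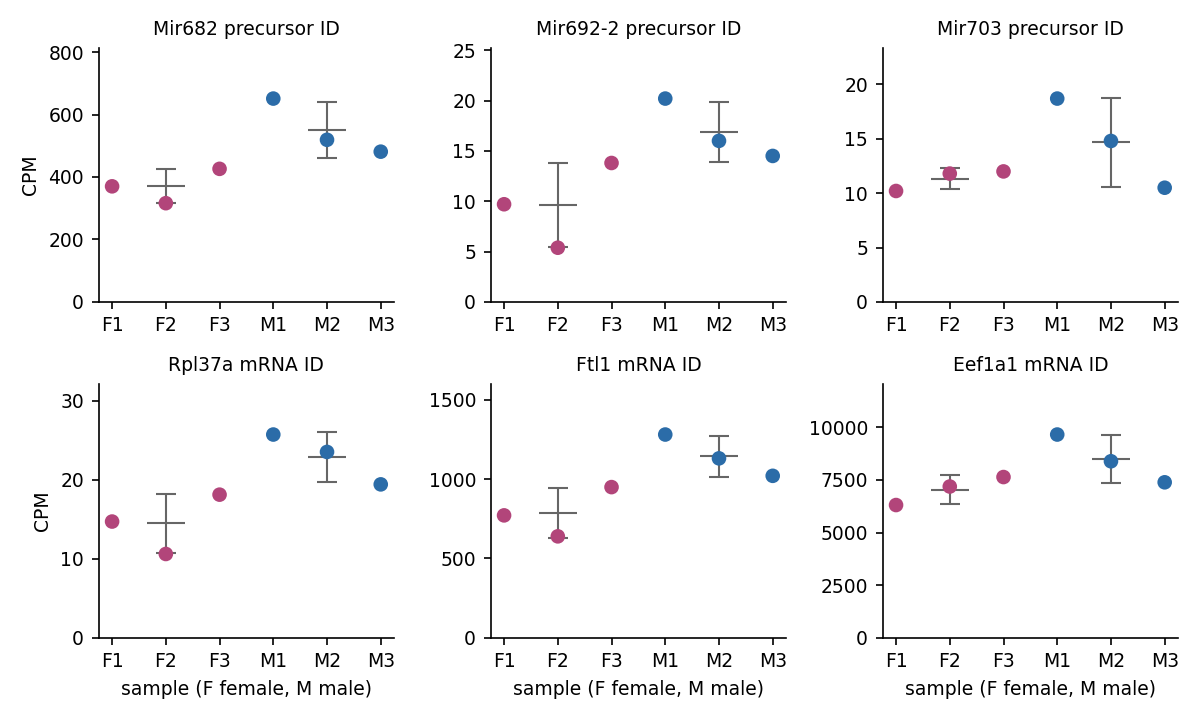
CPM of the precursor IDs Mir682, Mir692-2 and Mir703 (top) and of the mRNA IDs that their hairpins match, Rpl37a, Ftl1 and Eef1a1 (bottom), in each sample, with the mean and SD of each sex (n = 3) in grey. Male sample 1 is the highest point in all 6 panels, and male and female points do not overlap for Mir682, Mir692-2, Rpl37a and Ftl1.

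Mir6516 (chr11:116938662-116938771, + strand), in an exon of the non-coding gene 2810008D09Rik, had 31, 20 and 47 counts in female and 88, 45 and 51 in male samples. Its lowest male value, 5.09 CPM, was close to its highest female value, 5.01 CPM, and the log2 fold change was 0.60 (SE 0.32, unadjusted p = 0.0803, adjusted p = 0.478 in edgeR), or 0.36 without male sample 1. Mir7666, not placed, had 0, 1 and 2 against 10, 2 and 9 counts and thus lay within the limit of 3 counts in 4 of the 6 samples (log2 fold change 2.33, SE 1.12, adjusted p = 0.442 in edgeR). It passed the filter only through a male sample.

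Of the hairpins with lower male values, those with the smallest p lay inside or opposite to genes. So did most placed tested precursors outside the imprinted locus, with 9 in exons, 30 in introns, 12 opposite to a gene and 9 outside genes. Mir568 (chr16:43640768-43640850, + strand), in an exon of the transcription factor gene Zbtb20, had 17, 14 and 19 counts in female and 7, 6 and 12 in male samples. Every male value (0.723 to 1.20 CPM) was below every female value (1.94 to 2.79 CPM), and the log2 fold change was -1.37 (SE 0.56, unadjusted p = 0.0287, adjusted p = 0.390 in edgeR), or -1.19 without male sample 1. The Zbtb20 ID in the tables had 6 to 21 counts and a log2 fold change of -0.31 (SE 0.59). Mir1955 (chr2:92032134-92032231, + strand), in an intron of Phf21a, a chromatin reader gene, had 12, 14 and 12 against 2, 1 and 9 counts without overlap in CPM, with a log2 fold change of -2.11 (SE 0.81, unadjusted p = 0.0217, adjusted p = 0.379 in edgeR), or -3.29 without male sample 3. Phf21a was at 0.14 (SE 0.48). Mir1955 passed the filter only through female samples, so its values are no support for a difference.

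Mir6374 (chr6:83350990-83351096, - strand), in an intron of Tet3, had 17, 18 and 9 counts in female and 2, 9 and 7 in male samples (log2 fold change -1.67, SE 0.77, unadjusted p = 0.0487, adjusted p = 0.433 in edgeR). Female sample 3 lay within the male range, and Mir6374 passed the filter only through female samples. Tet3, which encodes an enzyme that oxidises methylated cytosine, was at -0.24 (SE 0.25) in its more counted ID. Mir5108 (chr10:61237485-61237569, + strand), opposite to H2afy2, was counted 11, 0 and 6 times in the female samples and never in the 3 male samples, each at 0. Its female mean of 0.797 CPM rested mainly on sample 1, female sample 2 was at 0 as well, and the ID passed the filter only through female samples, so no fold is given (unadjusted p = 0.0130, adjusted p = 0.347 in edgeR). Mir378b, opposite to Msi2, had 23, 16 and 15 against 0, 6 and 17 counts (-1.65, SE 0.84, adjusted p = 0.460 in edgeR), and its log2 fold change was -1.03 without male sample 1 and -2.71 without male sample 3. Mir5125 (chr17:23960258-23960336, + strand) lies in an intron of Srrm2, a splicing factor gene, and had 48, 36 and 47 against 17, 26 and 52 counts. Its log2 fold change of -0.84 (SE 0.41, adjusted p = 0.442 in edgeR) had the sign of that of Srrm2 (-0.55, SE 0.16, unadjusted p = 0.00506, adjusted p = 0.341 in edgeR), and both overlapped between the sexes. For Mir5125 it was -0.49 without male sample 1 and -1.21 without male sample 3.

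**Figure D5:**
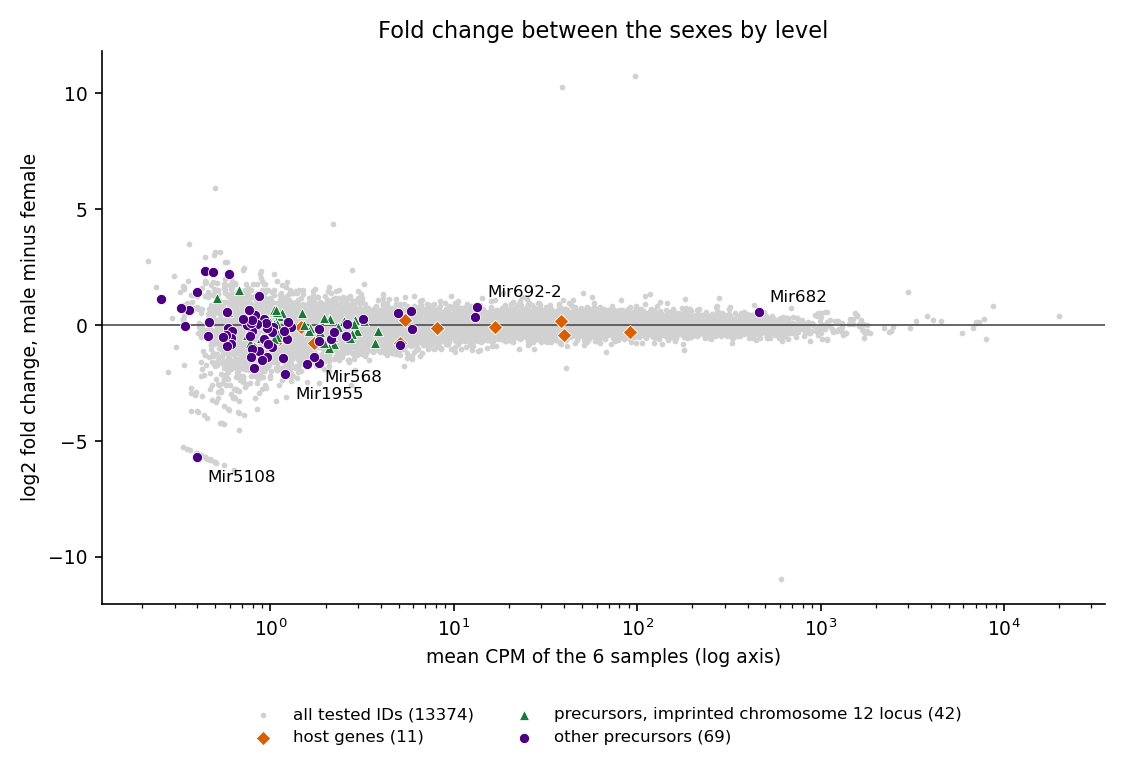
Log2 fold change (male minus female) against mean CPM of the 6 samples on a log axis, for all 13374 tested IDs (grey), 11 hosts, 42 precursors of the imprinted locus and 69 other precursors. Members spread widely below a few CPM, and Mir682 is the member with the highest level. Mir5108, with 0 male counts, is plotted lowest at a fitted value that gives no fold.

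Some lists had little to show. Some miRNAs had been picked for RT-qPCR from small RNA libraries of the same tissue, so their loci are not independent evidence of a direction. Of 9 IDs in a list drawn up for such loci, which also names some loci without primers, 1 was tested, Mir9-3. The list is not complete, and among the loci it leaves out (Mir409, Mir19a, Mir130b and Mir872) Mir409 was tested, at 0.39 on the log2 scale (SE 0.76), while the other three were below the filter. Of the 38 loci on the X chromosome 2 were tested, Mir7673 (-0.59 on the log2 scale, SE 0.73) and Mir1970 (-0.92, SE 0.98). The proliferation list had 3 of 12 IDs tested, which were Mir17hg, Mir15a (-0.80, SE 0.80) and Mir25 (-0.23, SE 0.87). Mir7652, named for its level and not placed, had 25 to 60 counts per sample, and its log2 fold change was -0.16 (SE 0.31). Both of its mature sequences occur exactly in the mRNA of G3bp1, an RNA-binding protein gene.

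The machinery that makes and uses miRNAs had 11 of 16 IDs with at least 100 counts in every sample. Of 16 genes 15 were found, and 15 of their 16 IDs were tested. The untested ID was Ago1, with no sample above 5 counts, and Tarbp2 (7 to 34 counts) and both IDs of Tnrc6b (8 to 37 counts) were low. None was called by edgeR, the smallest adjusted p being 0.347. At an unadjusted p under 0.05, 2 were higher in male and 3 in female samples, beside 6.68% and 4.82% of all tested IDs. Dicer1, the cytoplasmic hairpin-cutting enzyme, was at 483 ± 38.6 CPM in female and 380 ± 32.0 CPM in male samples without overlap (log2 fold change -0.35, SE 0.12, unadjusted p = 0.0127). The Argonaute genes Ago2 (-0.39, SE 0.14) and Ago3 (-0.43, SE 0.18) had the same direction. Prkra, a Dicer partner, was at 0.34 (SE 0.13) and Ran at 0.29 (SE 0.13). Dgcr8 (-0.09, SE 0.14) and Xpo5 (0.00, SE 0.12) were level within their error. Lin28b, which blocks let-7 processing, had 116 to 243 counts per sample (-0.12, SE 0.27), and Lin28a, with 1 to 13 counts, was at -1.70 (SE 0.86, adjusted p = 0.460 in edgeR). Without male sample 1 the log2 fold changes were -0.29 for Dicer1, -0.37 for Ago2, -0.24 for Ago3, 0.27 for Prkra and 0.19 for Ran.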

How the data were processed

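Total RNA of the 6 pools was made into stranded libraries and read from both ends. According to the study's methods, the authors trimmed reads with Trimmomatic (0.32), aligned them to mm9 with TopHat2 (2.1.1), assembled and merged transcripts with Cufflinks (2.2.1) and counted with featureCounts (1.5.1). The deposited values are raw counts per RefSeq ID, 1 table per sample, without normalisation. The treatment of strand, multiply aligned reads and reads shared by overlapping IDs is not given in the sources used here. Small RNA libraries of the study were not analysed here.

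Symbols came from a RefSeq gene table, which named 23359 of 23485 IDs. Of the 687 precursors, 570 had a hairpin in the RefSeq miRNA table. Exact matches with BLAST+ (2.17.0) placed 568 IDs on NCBIM37, GENCODE names placed 79, and 52 had no position. Near copies are matches of at least 95% identity over at least 95% of the hairpin, and mRNA matches at least 90% over 90%.

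IDs reaching 10 counts in any sample were compared by edgeR (4.0.16, R 4.3.3) quasi-likelihood F test with TMM factors and all 6 samples, and p-values were adjusted by Benjamini-Hochberg over all 13374 tested IDs. Each SE is the fold change divided by the root of its F value. CPM used TMM-scaled totals. Standard deviations are over 3 samples. Pairs of samples of 1 sex differed beyond sampling noise (chi-square per degree of freedom 9.03 to 44.9), so none was a copy. P-values measure the spread between these pools. The script was tested on simulated data. Alternatives used DESeq2 (1.42.0), RUVr factors, other filters and factors, a replicate block and each sample left out.

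Named in the text were the hosts, a list of neural loci, the 10 tested members of smallest p and the 10 of highest mean CPM, with enclosing genes. Members and lists were chosen with earlier results of these data known. The list of RT-qPCR loci holds part of the miRNAs for which the study had primers, which were its own choice on related samples. It also names loci of miR-199b, miR-200b and miR-219a, for which the study lists no primers.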

Additional observations from a re-analysis of the deposited data

How the results depend on the processing

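The low-count filter set how many miRNA IDs were tested. With a minimum of 20 counts in 1 sample 55 IDs passed, with 5 counts 236, and with 10 counts in every sample 15, beside 122 in the main comparison. The number called by adjusted p was 0 in edgeR, and 0 with each sample left out in turn. It was 1 with no count filter, 1 with DESeq2 and 3 with DESeq2 and a RUVr factor, which gave an adjusted p to 4 and 14 of the 122 and none to the others. IDs with an unadjusted p under 0.05 and higher female values were 4 in the main comparison, 2 with filterByExpr, 15 with no filter, 0 with 10 counts in every sample, 12 with edgeR and a RUVr factor and 8 with DESeq2 and that factor. With a sample left out they were 1 (without female sample 1) to 8 (without male sample 3). Those with higher male values were 2 in the main comparison, 5 with no filter, and 1 (without female sample 2) to 5 (without female sample 1 or male sample 1) with a sample left out. The median log2 fold change was -0.13 in the main comparison, ran from -0.71 without male sample 3 to 0.23 without male sample 1, and was -0.41 in edgeR and -0.43 in DESeq2 with a RUVr factor and -0.39 with no filter (-0.11 over all IDs).

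Replicate numbers did not pair the samples. The correlations of deviations were -0.287, -0.0643 and -0.203 for same-numbered female and male samples, so the number is no more than a name. With the replicate block 0 IDs were called, 2 had an unadjusted p under 0.05 with higher female and 2 with higher male values, the median log2 fold change was -0.24, and the sign turned for Mir181a-2 (-0.24) and the first Mir100hg ID (-0.12). The RUVr factor turned Mirlet7f-1 (-0.14 in edgeR, -0.20 in DESeq2), Mir181a-2 (-0.52 and -1.04), the first Mir100hg ID (-0.18 and -0.24) and, in edgeR, Mir125a (-0.14).

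With a sample left out, the sign turned for some members with fold changes near 0, whose log2 fold changes then ran from -0.29 to 0.09 for Mir7652, -0.59 to 0.17 for Mir22hg, -0.05 to 0.66 for Mir134, -0.29 to 1.00 for Mirlet7f-1, -0.51 to 0.14 for Mir7-1, -0.79 to 0.18 for Mir124a-1hg, -0.47 to 0.38 for Mir17hg, -0.78 to 0.05 for Mir99ahg, -1.14 to 0.37 for Mir99a, -0.32 to 0.16 for Mirlet7c-1, -0.26 to 0.72 for Mir181a-2, -1.01 to 0.41 for the second Mir100hg ID, -0.34 to 0.73 for the first Mir100hg ID, -0.47 to 0.31 for Mir100 and -0.25 to 1.59 for Mirlet7a-2. No call was lost by any of these, since edgeR had made none with all samples, and the cause of each turn was not tested. Counts per hairpin limit what could be seen, and 31 of the 122 tested IDs were at 0 in at least 1 sample.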
